A study of Mirounga angustirostris with 8 samples.

Results

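The carbonic anhydrase genes were examined in RNA from a back muscle, the longissimus dorsi, of northern elephant seals (NES; adult females), in 4 pre-molt and 4 post-molt libraries. The 9 symbols CA1, CA2, CA3, CA4, CA5B, CA8, CA11, CA13 and CA14 were looked up in the deposited table of reads counted per gene, which lists 8 of them among 24338 named genes and has no entry under CA1. The family was selected on the measured fold change of CA3, which was lower post-molt. The values of CA3 are therefore a description, and nothing is read from its place against a test threshold. The other members were taken by name. Pre-molt biopsies came from seals that had been ashore for at most 5 days (seals 5572, 5842, 6762 and C497). Post-molt biopsies came from seals at the end of a fast on land (seals 4448, 5572, 9678 and X410). The paper places its post-molt samples a mean of 34 days after the first sample, a value for the study and not for these 4 seals. The labels give no treatment, and the study kept for each stage those samples that yielded most unique reads. With seal 5572 alone represented in both groups, the 2 groups were compared unpaired. The spread between libraries is that between animals together with any difference in library quality. The totals over the named genes were 37897904 to 56137977 counts pre-molt and 30769570 to 61216192 post-molt. Expression is given as CPM, the reads of a gene relative to all reads of the library after scaling with TMM factors. Fold changes divide post-molt by pre-molt, are log2 values, and carry a standard error (SE) from the quasi-likelihood fit of edgeR over 14312 genes.

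Carbonic anhydrases are zinc enzymes that interconvert carbon dioxide and bicarbonate, and so set how fast carbon dioxide, protons and bicarbonate move between muscle fibers and blood. Members differ mainly in where they sit. CA2, CA3 and CA13 are cytosolic, CA5B is mitochondrial, and CA4 and CA14 are held in membranes with the active site facing outward. CA8 and CA11 keep the fold of the family but lack catalytic activity. CA3 is a slow enzyme known for its great abundance in skeletal muscle, above all in slow oxidative fibers, and in adipocytes. CA1, which has no entry under that symbol here, is known as a red blood cell enzyme.

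CA3 was lower in every post-molt library than in any pre-molt library. Its level pre-molt was 2621 CPM in seal 5572, 2588 in 5842, 575 in 6762 and 1781 in C497. Post-molt it was 257 CPM in seal 4448, 206 in 5572, 408 in 9678 and 425 in X410. The groups did not overlap, and pre-molt 6762 stood closest to the post-molt libraries. The group means were 1891 ± 959 CPM pre-molt and 324 ± 109 CPM post-molt (SD, n = 4 each), a log2 fold change of -2.55 ± 0.43 (SE), or 5.84-fold lower. In the 1 animal found in both groups, seal 5572, CA3 was 12.7-fold lower post-molt than pre-molt. These levels rest on 7413 to 110170 reads per library, so counting error is small beside the differences between libraries. The exact Poisson 95% interval of the lowest library, post-molt 5572, was 201 to 211 CPM. Pre-molt libraries differed among themselves by 4.56-fold in CA3 and post-molt libraries by 2.06-fold.

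**Figure D1:**
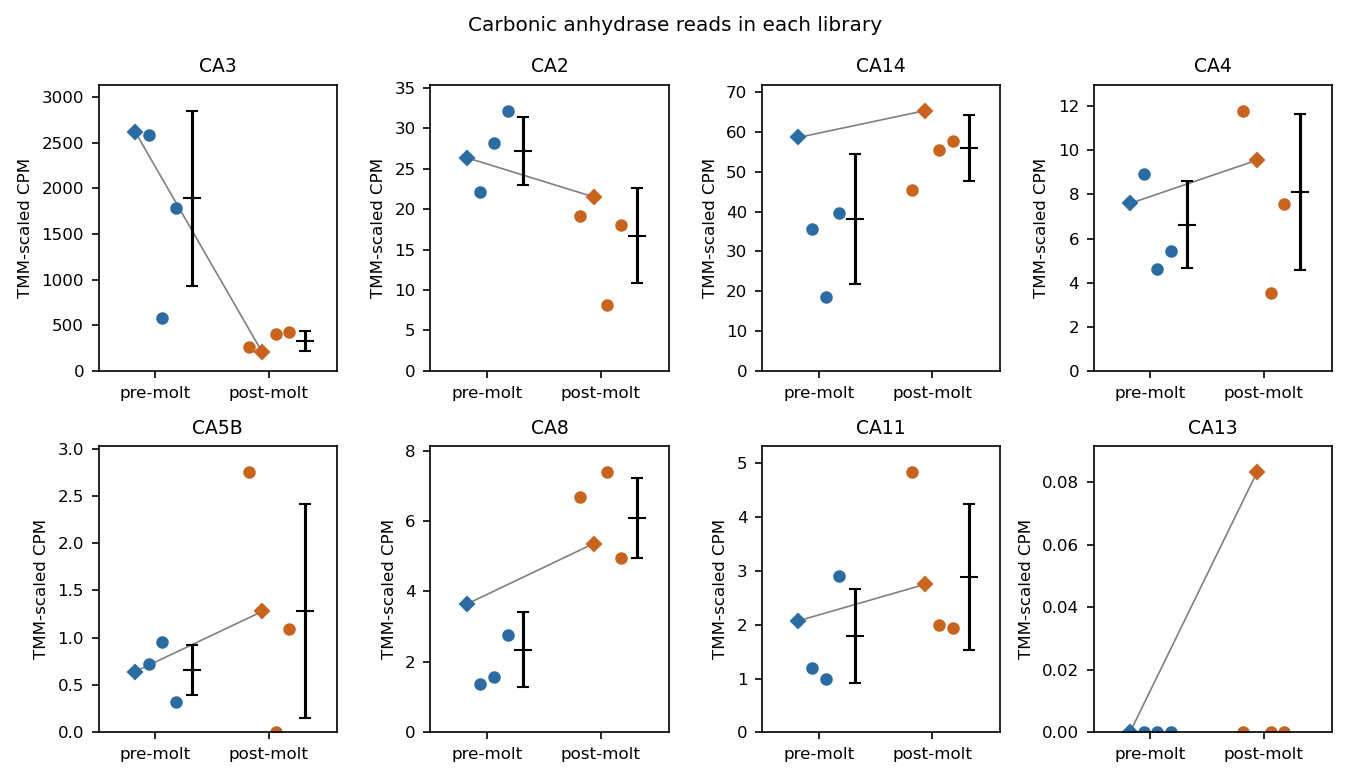
TMM-scaled CPM (vertical axes, each starting at 0) of the 8 listed carbonic anhydrase genes in 4 pre-molt (blue) and 4 post-molt (orange) libraries. Diamonds joined by a grey line are seal 5572, black bars are the group mean and SD (not drawn for CA13, which has reads in 1 library). CA3 and CA2 lie higher in all pre-molt libraries, CA8 lies higher in all post-molt libraries, and the groups overlap for the other members.

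CA2, the fast cytosolic enzyme, had lower values post-molt by a smaller amount. Pre-molt it was 26.4 CPM in seal 5572, 22.1 in 5842, 28.2 in 6762 and 32.2 in C497, and post-molt 19.2 CPM in 4448, 21.5 in 5572, 8.13 in 9678 and 18.1 in X410. All pre-molt libraries were above all post-molt libraries, although pre-molt 5842 and post-molt 5572 were nearly level (705 and 775 reads, with Poisson 95% intervals of 20.5 to 23.8 and 20.04 to 23.1 CPM). The means were 27.2 ± 4.19 and 16.7 ± 5.91 CPM (SD, n = 4 each), and the log2 fold change was -0.70 ± 0.29 with a 95% interval of -1.33 to -0.08. It did not pass the test over all genes (edgeR adjusted p = 0.353, unadjusted p = 0.0309). Post-molt 9678 had the lowest value, and without it the log2 fold change was -0.47. That library had the smallest total, the most genes at 0 (11662) and, in the study's mapping summary, the smallest uniquely mapped share. CA2 and CA3 are neighbours in the row order of the table, as they are in the gene cluster of other mammals. In seal 5572 CA2 was lower post-molt by 1.23-fold, beside the 12.7-fold of CA3.

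CA13, the remaining cytosolic enzyme among the members, had 3 reads in post-molt 5572 and 0 in the other 7 libraries. A count of 0 allows a level of up to 0.0430 CPM (post-molt 4448) to 0.0968 CPM (post-molt 9678), taking 3 reads as the limit. It did not pass the filter on low counts and was not tested.

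The membrane-bound enzymes CA14 and CA4 had somewhat higher mean values post-molt, with groups that overlapped. CA14, a transmembrane enzyme known from the surface and the sarcoplasmic reticulum of muscle fibers, was at 58.6, 35.7, 18.7 and 39.5 CPM in pre-molt 5572, 5842, 6762 and C497, and at 45.4, 65.3, 55.5 and 57.6 CPM in post-molt 4448, 5572, 9678 and X410. Only pre-molt 5572 reached into the post-molt range. The means were 38.1 ± 16.4 and 56.0 ± 8.22 CPM (SD, n = 4 each), and the log2 fold change of 0.55 ± 0.29 (95% interval -0.08 to 1.18) did not pass (edgeR adjusted p = 0.530). In seal 5572 CA14 differed by 1.12-fold between the times, and without that seal's pre-molt library the log2 fold change was 0.83 (adjusted p = 0.261). Without pre-molt 6762 it was 0.33.

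CA4, which is tied to the outer membrane face by a lipid anchor and is known from capillary endothelium and the fiber surface, ranged from 4.62 to 8.91 CPM pre-molt and from 3.52 to 11.8 CPM post-molt. The lowest and the highest value over all 8 libraries were both post-molt, in 9678 and 4448. Its log2 fold change was 0.29 ± 0.40, with a 95% interval of -0.58 to 1.17 (edgeR adjusted p = 0.873). CA5B, the mitochondrial member, was near the limit of counting, with 19 to 52 reads per library pre-molt and 0 to 192 post-molt. It was at 0.319 to 0.960 CPM pre-molt and at 2.75, 1.28 and 1.09 CPM in post-molt 4448, 5572 and X410. Post-molt 9678 had 0 reads, which allows up to 0.0968 CPM, and the log2 fold change of 0.95 ± 1.35 (95% interval -1.98 to 3.89, edgeR adjusted p = 0.878) leaves its direction unsettled.

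CA8, one of the members without catalytic activity and known as a binding partner of the inositol trisphosphate receptor, was higher in all post-molt libraries than in any pre-molt library. Pre-molt it was at 3.64 CPM in seal 5572, 1.38 in 5842, 1.57 in 6762 and 2.77 in C497, and post-molt at 6.68 CPM in 4448, 5.36 in 5572, 7.39 in 9678 and 4.95 in X410. The separation was present from 44 to 165 reads per library pre-molt and 193 to 466 post-molt. The means were 2.34 ± 1.06 and 6.10 ± 1.13 CPM (SD, n = 4 each), 2.60-fold higher post-molt, with a log2 fold change of 1.38 ± 0.47 (95% interval 0.35 to 2.41). It did not pass in edgeR (adjusted p = 0.243, unadjusted p = 0.0125) and passed in DESeq2 (adjusted p = 0.0261). In seal 5572 the level post-molt was 1.47-fold that pre-molt, and the edgeR log2 fold change with 1 library left out ranged from 1.22 to 1.67. DESeq2 gave CA8 an adjusted p in 7 of 8 fits with 1 library left out. Of these 7, the call held only in the fit without pre-molt C497 (adjusted p = 0.0406, against up to 0.130 in the others). The fit without pre-molt 5572 gave no adjusted p, with a log2 fold change of 1.68 and an unadjusted DESeq2 p of 2.69e-04.

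CA11, also without catalytic activity, was at 0.997 to 2.90 CPM pre-molt and 1.94 to 4.83 CPM post-molt. The groups overlapped, with post-molt 4448 above the other 7 libraries, and the log2 fold change was 0.69 ± 0.68 (95% interval -0.79 to 2.16, edgeR adjusted p = 0.805). Without post-molt 4448 it was 0.32. In seal 5572 the level was 1.33-fold higher post-molt, at 2.07 and 2.75 CPM.

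Of the 8 listed members, 7 passed the filter on low counts. CA3 was past the threshold of edgeR, which is the value that the family was chosen by, so nothing is read from it, and the counts that follow are over the 6 other tested members. Of these edgeR called 0 lower, where 0.133% of all genes tested were called, and 0 higher, where the share was 0.217% (0.349% in either direction). At an unadjusted p under 0.05 CA2 was lower, as were 6.22% of genes tested, and CA8 was higher, as were 5.2% (11.4% in either direction). DESeq2 called 0 lower, against 3.16% of its genes, and CA8 higher, against 3.35% (6.52% in either direction), and limma-voom called 0, against 0.657%. All pre-molt libraries were above all post-molt libraries for CA2, as for 5.11% of genes tested, and the reverse held for CA8, as for 4.05% (9.16% without overlap in either direction). The log2 fold change was negative for CA2 and for CA3, which was chosen for its fall, and positive for the 5 other tested members. The median over all genes tested was -0.04.

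**Figure D2:**
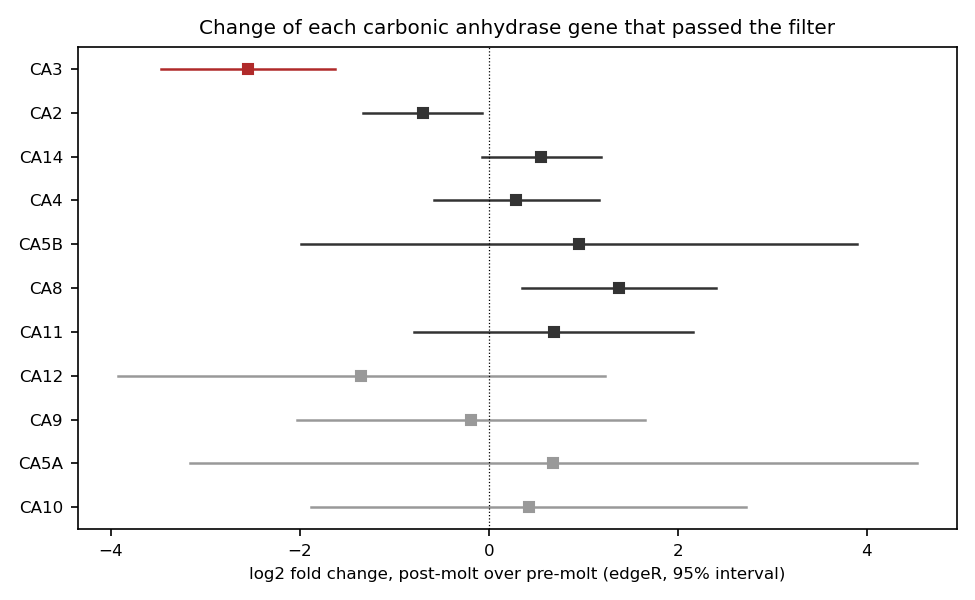
Log2 fold change, post-molt over pre-molt, with its 95% interval from edgeR, for the 7 tested members (CA3 in red, others in black) and 4 further carbonic anhydrase genes (grey). CA3 lies at -2.55, CA2 at -0.70 and CA8 at 1.38, and the intervals of the remaining genes include 0. CA2 and CA8 did not pass in edgeR, and the interval of CA3, chosen for its fall, is drawn as a description.

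The family's reads were divided differently before and after the molt. CA3 took 91.3% (Wilson 95% interval 91.0 to 91.6%) of the reads on the 8 members in pre-molt 6762 and 95.5 to 97.4% in the other pre-molt libraries. Post-molt its share was 66.0% (65.2 to 66.9%) in seal 5572, 73.9% in 4448, 84.2% in 9678 and 82.3% in X410. The share of CA14 was 1.34 to 2.96% pre-molt and 11.2 to 21.0% post-molt. These are shares of reads, which also depend on transcript length, and the lower level of CA3 enters each of them. The intervals cover counting error only. Without CA3, the summed level of the 7 other members was 55.1 to 98.9 CPM pre-molt (mean 76.8 ± 18.7) and 76.5 to 106 CPM post-molt (mean 91.1 ± 12.0).

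**Figure D3:**
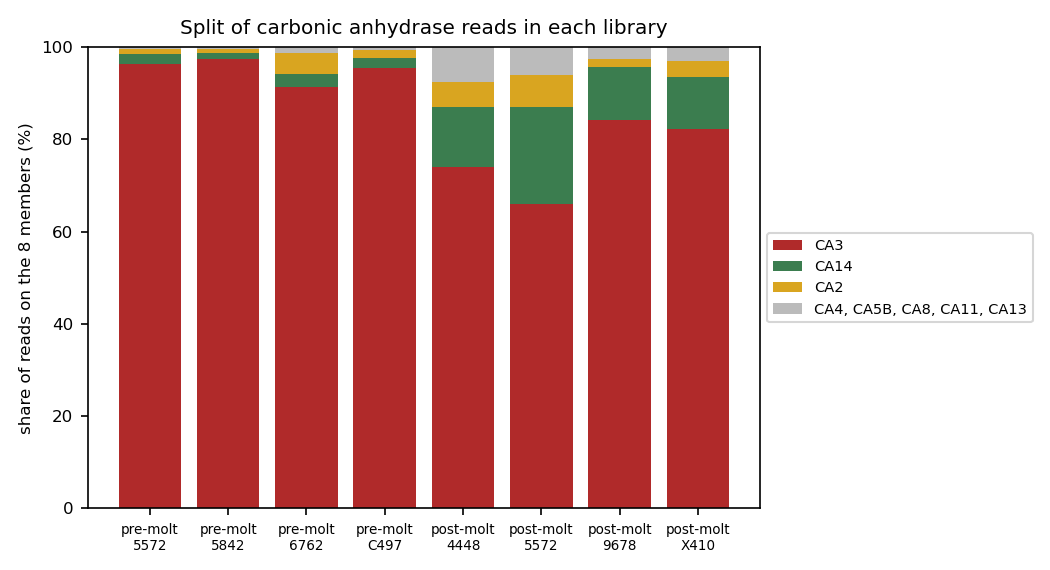
Share of the reads on the 8 listed members (vertical axis, percent) taken by CA3, CA14, CA2 and the 5 others together in each library. CA3 takes 91.3 to 97.4% in the pre-molt libraries and 66.0 to 84.2% in the post-molt libraries.

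Pre-molt 6762 was the lowest of the pre-molt libraries for CA3, CA14, CA4 and CA11, and the highest for CA5B. The 2 pre-molt libraries with the highest CA3, 5572 and 5842, were not alike in the other members: CA14 was 58.6 and 35.7 CPM, CA8 was 3.64 and 1.38 CPM, and CA2 was 26.4 and 22.1 CPM. Post-molt, 4448 was highest for CA4, CA5B and CA11 and lowest for CA14, and 9678 was lowest for CA2, CA4 and CA5B and highest for CA8.

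Of the other carbonic anhydrase genes, 6 have an entry (CA5A, CA6, CA7, CA9, CA10 and CA12), and CA15 has none. CA6, the secreted salivary enzyme, and CA7, a cytosolic enzyme, had 0 reads in all 8 libraries. CA12, a membrane enzyme with an outward active site, was at 2.91 ± 2.04 (pre-molt) and 1.15 ± 1.07 CPM (post-molt; SD, n = 4 each; log2 fold change -1.35 ± 1.19, edgeR adjusted p = 0.770). CA9, a related membrane enzyme and a classic target of the hypoxia-inducible factor, was at 1.78 ± 0.49 and 1.56 ± 1.39 CPM (-0.19 ± 0.85, adjusted p = 0.967), with the widest spread post-molt, 0.634 to 3.61 CPM. The mitochondrial CA5A, known as the liver form, had 233 reads in all and CA10, also without catalytic activity, 383. Their log2 fold changes were 0.68 ± 1.77 and 0.42 ± 1.06. None of the 4 tested passed in edgeR (0 at an unadjusted p under 0.05), and DESeq2 gave none an adjusted p.

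Bicarbonate and protons made by carbonic anhydrases cross membranes through transporters. Counts in these and the later lists stand beside the shares over all genes, in either direction. These were 0.349% called in edgeR, 11.4% at an unadjusted edgeR p under 0.05, 6.52% called in DESeq2 and 9.16% without overlap between the groups. With lists this short, 0 called in edgeR is near that share. Of 13 bicarbonate transporter genes (SLC4 and SLC26 families) 8 were tested, and none passed in edgeR or DESeq2 or had an unadjusted p under 0.05 in edgeR. The median log2 fold change was -0.23. SLC4A3, an anion exchanger of heart and skeletal muscle, was at 27.5 ± 9.36 (pre-molt) and 24.8 ± 9.92 CPM (post-molt), with a log2 fold change of -0.15 ± 0.34 (edgeR adjusted p = 0.932), and SLC4A2, its more widely expressed relative, at 19.8 ± 6.29 and 20.2 ± 9.77 CPM (0.03 ± 0.34, adjusted p = 0.989). Their 95% intervals, -0.89 to 0.58 and -0.70 to 0.77, still include changes of moderate size.

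Of 14 proton and lactate exporter genes 12 were tested and 0 passed in edgeR, with 1 lower (SLC16A3) and 0 higher at an unadjusted p under 0.05, and a median of 0.07. SLC16A3, the lactate and proton cotransporter of glycolytic fibers (MCT4), was at 76.3, 348, 59.6 and 84.6 CPM in pre-molt 5572, 5842, 6762 and C497, and at 10.02, 34.3, 28.0 and 16.1 CPM in post-molt 4448, 5572, 9678 and X410. The groups did not overlap, and pre-molt 5842 was far above the others. The log2 fold change was -2.69 ± 0.57 (edgeR adjusted p = 0.0629, DESeq2 0.00541, limma-voom 0.0474). With 1 library left out, DESeq2 called SLC16A3 in 8 of 8 fits and edgeR in 0. BSG, the chaperone that carries lactate transporters to the cell surface, was at 607 ± 61.0 and 649 ± 64.3 CPM (0.10 ± 0.18, adjusted p = 0.917).

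Bicarbonate is also a substrate. Of 9 enzymes that fix it, all tested, 0 passed in edgeR or DESeq2, and PCCB, a subunit of propionyl-CoA carboxylase, had an unadjusted edgeR p under 0.05 (81.0 ± 8.14 and 60.1 ± 2.78 CPM, log2 fold change -0.43 ± 0.17, adjusted p = 0.315). ACACB, the acetyl-CoA carboxylase of muscle mitochondria, was at 498 ± 150 and 450 ± 90.9 CPM (-0.15 ± 0.24, adjusted p = 0.901). The median of the 9 was 0.09. Carnosine is a dipeptide that buffers protons inside fibers. Of 5 genes for making, breaking down or supplying it, 0 passed in edgeR, 2 were lower at an unadjusted p under 0.05, CARNS1 passed in DESeq2, and the median was -0.45. CARNS1, carnosine synthase, was at 711, 537, 542 and 410 CPM in pre-molt 5572, 5842, 6762 and C497 and at 86.7, 293, 308 and 317 CPM in post-molt 4448, 5572, 9678 and X410. The groups did not overlap (log2 fold change -1.13 ± 0.35, edgeR adjusted p = 0.186, DESeq2 0.0266), and post-molt 4448 was the lowest. The DESeq2 call was lost without pre-molt 5572, 5842 or 6762 or without post-molt 5572 (adjusted p up to 0.103). CNDP2, a cytosolic dipeptidase, was at 40.4 ± 2.24 and 29.5 ± 2.26 CPM (-0.45 ± 0.17, edgeR adjusted p = 0.303).

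**Figure D4:**
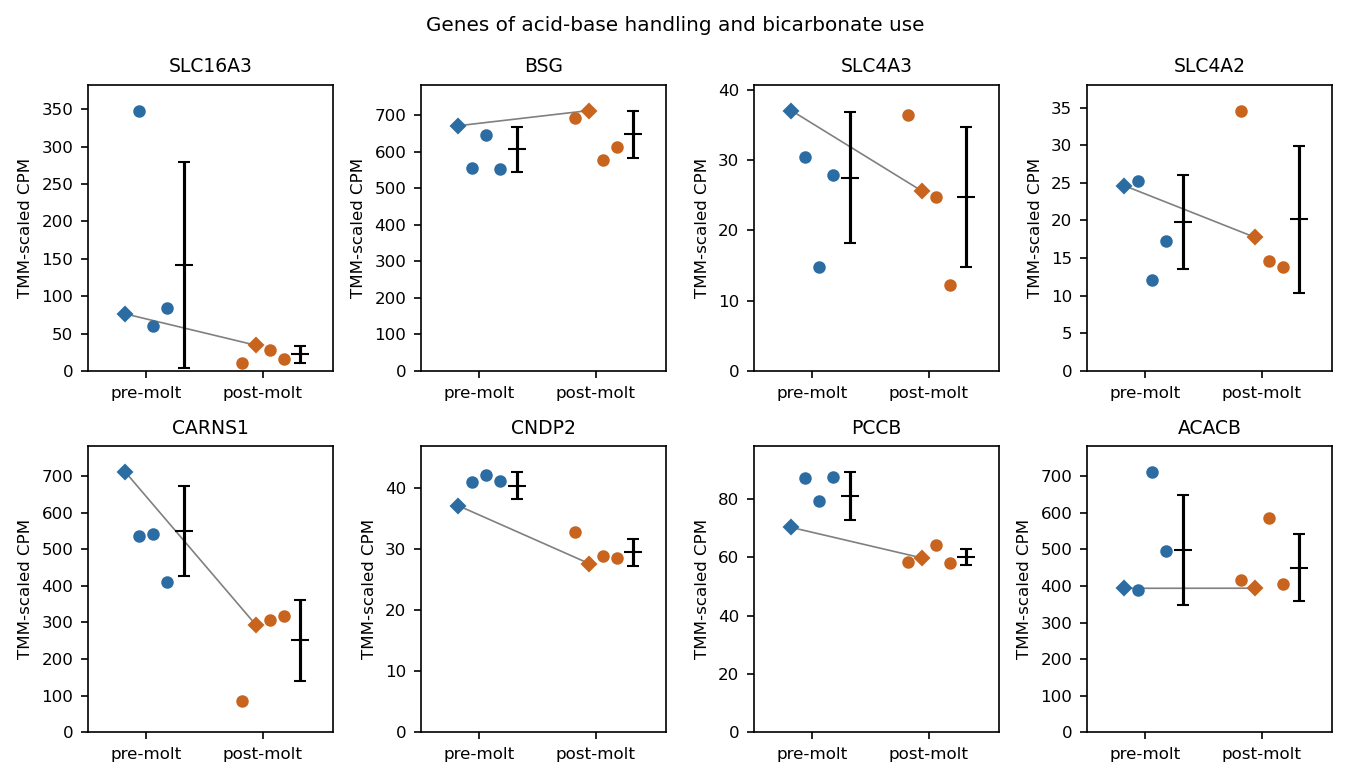
TMM-scaled CPM (vertical axes, each starting at 0) of 8 genes of acid-base handling and bicarbonate use in 4 pre-molt (blue) and 4 post-molt (orange) libraries, with diamonds for seal 5572 and bars for mean and SD. SLC16A3, CARNS1, CNDP2 and PCCB lie higher in all pre-molt libraries, as do 5.11% of genes tested. The groups overlap for the other 4 genes, and none of the 8 passed in edgeR.

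The receptor that CA8 binds, encoded by ITPR1, was at 10.4 ± 4.78 (pre-molt) and 11.7 ± 7.76 CPM (post-molt), with a log2 fold change of 0.16 ± 0.55 (edgeR adjusted p = 0.956), and its relative ITPR2 at 12.2 ± 7.37 and 17.6 ± 9.71 CPM (0.53 ± 0.43, adjusted p = 0.740). Of 6 receptor and neurexin genes listed as partners of the members without catalytic activity, 4 were tested, 0 passed in edgeR or DESeq2, 0 had an unadjusted edgeR p under 0.05, and the median was 0.32.

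Because CA3 is known from slow fibers and from fat, and the biopsy passed through blubber, marker genes were read beside it. In bulk muscle, fewer cells of a type and less RNA per cell cannot be told apart. Of 10 skeletal muscle genes all were abundant, with summed levels of 181119 to 280986 CPM pre-molt and 165971 to 236082 CPM post-molt, and none at 0, and their median log2 fold change was -0.40. MB (myoglobin) was at 69243 ± 18795 and 110535 ± 17564 CPM (0.67 ± 0.23, edgeR adjusted p = 0.248, DESeq2 0.0279) and ACTA1 (skeletal actin) at 85956 ± 22329 and 45185 ± 9792 CPM (-0.93 ± 0.25, edgeR adjusted p = 0.123, DESeq2 0.00400). MYOT (myotilin, a Z-disc protein), named after its values were seen because DESeq2 called it, was at 380 ± 200 and 1022 ± 161 CPM without overlap (1.43 ± 0.32, edgeR adjusted p = 0.0737, DESeq2 8.38e-04). With 1 library left out, DESeq2 called ACTA1 and MYOT in 8 of 8 fits and MB in 2.

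The summed level of the slow-fiber markers overlapped between the groups. It was 45583 to 97258 CPM pre-molt and 55046 to 78268 CPM post-molt, 0 of 10 were lower in edgeR, and the median log2 fold change was -0.08. MYL2 was at 15864 ± 4562 and 14358 ± 3642 CPM (change in log2 -0.14 ± 0.26, edgeR adjusted p = 0.914), TNNI1 at 11017 ± 2769 and 12040 ± 1931 CPM (0.13 ± 0.23, adjusted p = 0.911), and ATP2A2, the slow calcium pump, was higher post-molt without overlap (1.09 ± 0.20, edgeR adjusted p = 0.0419, DESeq2 4.03e-08). With 1 library left out, edgeR kept the call of ATP2A2 only in the fit without pre-molt 5842 (adjusted p up to 0.122), and DESeq2 kept it in 8 of 8 fits. MYH7 has no entry under that symbol, and neither do MYH1, MYH2 and MYH4 of the fast-fiber list. Fast-fiber markers were lower post-molt in summed level, 9719 to 27828 CPM against 4880 to 7631 CPM, with a median of -2.08. Of 10 tested, 6 were lower at an unadjusted p under 0.05, as were 6.22% of all genes tested. In edgeR 1 was called lower, MYOM2 (-2.13 ± 0.32, adjusted p = 0.0177), against 0.133% of all genes tested. DESeq2 called 2 lower, MYOM2 and MYBPC2 (-1.39 ± 0.37, edgeR adjusted p = 0.123, DESeq2 0.00697), against 3.16% of its genes. The edgeR call of MYOM2 was lost without pre-molt 5572, post-molt 4448 or post-molt 5572 (adjusted p up to 0.0711), and the DESeq2 call of MYBPC2, named after its values were seen, without post-molt 5572. TNNC2 (-2.03 ± 0.72, adjusted p = 0.263) and ACTN3 (-0.67 ± 0.24, adjusted p = 0.268) did not pass. The part of fiber makeup in the lower CA3 was not tested.

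Adipocyte markers had summed levels of 65.6 to 210 CPM pre-molt and 35.3 to 141 CPM post-molt, which overlapped, with a median of -0.89 and 0 of 8 called in edgeR. CIDEC, a lipid droplet protein of fat cells, was at 26.3 ± 13.4 and 5.38 ± 3.02 CPM without overlap (change in log2 -2.29 ± 0.45, edgeR adjusted p = 0.0542, DESeq2 adjusted p = 1.62e-04). With 1 library left out, DESeq2 called CIDEC in 8 of 8 fits and edgeR in 2. FABP4 was at 58.0 ± 32.9 and 40.8 ± 20.3 CPM (-0.51 ± 0.40, edgeR adjusted p = 0.721). In seal 5572 the summed level of these markers was 78.2 CPM pre-molt and 141 CPM post-molt. In that seal CIDEC was at 18.5 and 9.78 CPM, and FABP4 at 47 and 63.8 CPM. The part of fat cells in the lower CA3 was not tested. Endothelial markers, read beside CA4, had summed levels of 517 to 666 CPM pre-molt and 475 to 552 CPM post-molt, a median of -0.10 and 0 of 12 called in edgeR. VWF was at 227 ± 45.0 and 192 ± 36.3 CPM and PECAM1 at 126 ± 15.2 and 107 ± 11.1 CPM (edgeR adjusted p = 0.762 and 0.704). KDR, the main receptor for vascular endothelial growth factor, named after its values were seen because DESeq2 called it, was at 25.6 ± 6.76 and 9.36 ± 4.22 CPM without overlap (-1.45 ± 0.34, edgeR adjusted p = 0.0807, DESeq2 0.00356, called by DESeq2 in 8 of 8 fits with 1 library left out). Schwann cell markers were lower in summed level post-molt, 80.3 to 102 CPM against 57.6 to 74.7 CPM, with 0 of 5 called in edgeR and a median of -0.08. MBP was at 75.2 ± 12.1 and 47.6 ± 10.8 CPM (change in log2 -0.66 ± 0.21, edgeR adjusted p = 0.200, DESeq2 0.0383, kept by DESeq2 in 2 of 8 fits with 1 library left out) and PRX at 9.55 ± 4.51 and 9.70 ± 3.31 CPM (0.02 ± 0.39, adjusted p = 0.994). Red blood cell markers were close to 0, with at most 3.44 CPM summed over 8 listed genes in any library. The globin genes HBA and HBB have no entry under those symbols, so blood in the biopsies could be read only from genes such as ALAS2, at 0 to 0.850 CPM pre-molt and 0 to 1.39 CPM post-molt, and EPB42, at 0 to 2.05 CPM over the 8 libraries.

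**Figure D5:**
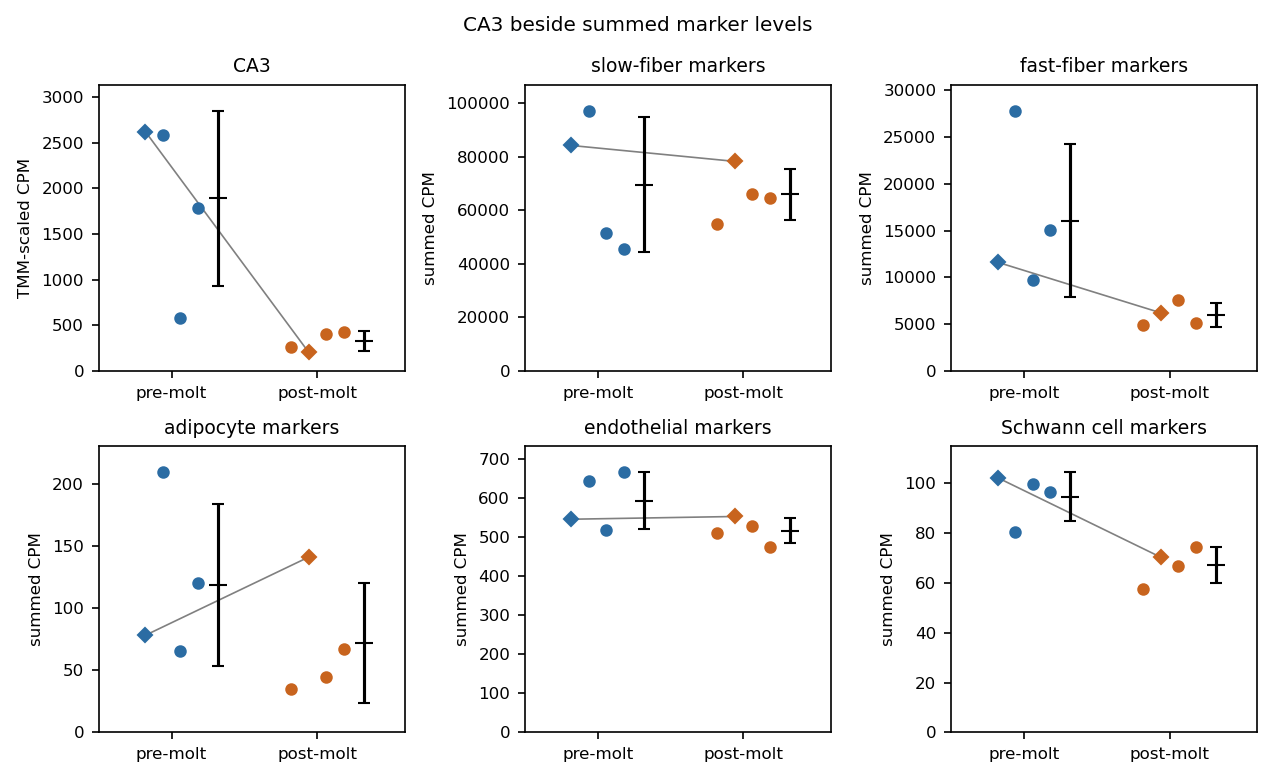
CPM of CA3 and summed CPM of 5 marker lists (vertical axes, each starting at 0) in 4 pre-molt (blue) and 4 post-molt (orange) libraries, with diamonds for seal 5572 and bars for mean and SD. Slow-fiber, adipocyte and endothelial sums overlap between the groups, and fast-fiber and Schwann cell sums lie lower in all post-molt libraries.

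The genes whose log2 CPM followed CA3 most closely over the 8 libraries, out of 12320 genes with a symbol, were MED10 (Pearson r = 0.948), EIF3F (0.938), COL6A1 (0.936), TUBA1C (0.931) and APLNR (0.921). These values describe the likeness of profiles that share the same 8 libraries and the same division into groups, and carry no test. MED10, a Mediator subunit, differed far less in level than CA3, at 22.4 ± 1.65 and 17.6 ± 1.37 CPM (change in log2 -0.35 ± 0.20). EIF3F, a translation initiation factor, was at 153 ± 33.3 and 83.6 ± 5.29 CPM (-0.87 ± 0.19), and TUBA1C, an alpha-tubulin, at 41.9 and 15.2 CPM (-1.46 ± 0.33).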

How the data were processed

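Libraries were grouped as pre-molt (n = 4) and post-molt (n = 4) from the sample labels. The authors aligned the paired reads to the genome of the Hawaiian monk seal with STAR, and the deposited values are its raw counts per gene, unscaled; bcl2fastq 2.20, R 3.4.3 and DESeq2 1.18.1 are named in the submitters' processing notes. The strand setting is not given in the sources used here, so antisense reads cannot be told apart, and reads with several alignments are left out by this counting. Of 24349 rows, 11 name no gene (0.0173 to 0.0259% of counts) and were left out. Genes were filtered with filterByExpr (minimum count 10, minimum total 15) and compared with edgeR 4.0.16 (TMM, quasi-likelihood, Benjamini-Hochberg over 14312 genes, threshold 0.05) in R 4.3.3. Alternatives used DESeq2 1.42.0 and limma 3.58.1, other scalings and filters, and left out libraries. The scripts were tested on simulated data. No library was a copy of another (chi-square per degree of freedom at least 84.1 over 28 pairs). The members and the gene lists were chosen with earlier results of these data known. Genes were named by rule: all members, other carbonic anhydrases, the 2 with the highest mean CPM in each list with any past the edgeR threshold, and the 5 most like CA3 over all libraries and within groups. Log2 CPM used a prior count of 2. No gene lengths of the counted annotation were used, so CPM and shares of reads do not rank transcript levels between genes. A gene of the exporter list is not reported here and was left out of that list's counts.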

Additional observations from a re-analysis of the deposited data

How the results depend on the processing

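No paired analysis was possible because only seal 5572 has a library in both groups. Each of the 7 tested members kept the sign of its log2 fold change under all 19 alternatives (18 for CA5B, which a filter at 1 CPM in 4 libraries removed), and under DESeq2 with 1 library left out, an alternative chosen after seeing the data. The number of members lower in edgeR consists of CA3, which was chosen for its fall, so nothing is read from it in either direction. As a description, it was 0 to 1 with 1 library left out (0 without pre-molt 5572 or 5842 or any 1 post-molt library). It was 0 without both libraries of seal 5572, and 0 without pre-molt 5842 and post-molt 9678. Those are, in each group, the library with the smallest uniquely mapped share. The log2 fold change of CA3 was between -2.84 and -2.19 under the 19 alternatives. The number of members higher was 1 in DESeq2 (CA8) and 0 to 1 in DESeq2 with 1 library left out. A missing adjusted p counted there as no call. Without scaling factors the median over all genes moved from -0.04 to 0.10, and members moved with it (CA8 1.53, CA14 0.72, CA2 -0.56). Of 702 counts of called genes in the lists over all alternatives, 614 stayed within 1.5 times, with 0 staying 0 included, and 88 moved. In the main fit only the slow-fiber list (1 higher) and the fast-fiber list (1 lower) had a called gene. The 614 are therefore mostly counts of 0 and do not measure how steady calls are. The cause of the lost calls was not tested. CA5B had 0 to 192 reads per library and CA13 0 to 3.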

Other observations

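The group mean was subtracted from each library, so that only differences between libraries of the same group remained. The genes whose log2 CPM then followed CA3 most closely out of 12320 were PER3 (Pearson r = 0.945 over 8 libraries), HILPDA (0.935), BCAT2 (0.93), CATSPERE (0.927) and HEPACAM2 (0.922). PER3, a circadian clock gene, was at 24.7 ± 5.18 (pre-molt) and 25.2 ± 1.81 CPM (post-molt), with a log2 fold change of 0.03 ± 0.21 (edgeR adjusted p = 0.979), HILPDA, a lipid droplet protein, at 6.42 ± 2.53 and 10.1 ± 2.33 CPM (0.66 ± 0.36, adjusted p = 0.553), and BCAT2, the mitochondrial branched-chain aminotransferase, at 59.1 ± 14.8 and 61.9 ± 4.14 CPM (0.07 ± 0.21, adjusted p = 0.953). CATSPERE and HEPACAM2 had group means of 0.522 to 1.498 CPM. The values are descriptions of 8 libraries, without a test. None of the 5 was among the 5 closest genes over all 8 libraries.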
